A study of Mus musculus with 24 samples.

Results

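The comparison described here set dendritic cells labelled as Arpc4 knockout against control cells on day 7 of culture, the earliest of the 4 days sampled. It used 6 of the 24 libraries in the series: 3 labelled knockout (KO, mice 64, 67 and 68) and 3 labelled wild type (WT, mice 63, 65 and 66), chosen by their genotype and day labels. The cells were bone-marrow-derived dendritic cells, grown in medium with GM-CSF from the marrow of mice of both sexes aged between 8 and 10 weeks, and only the cells in suspension were taken. All mice of both groups carried floxed Arpc4 on both alleles, so WT here means floxed and without Cre. KO mice also carried 1 copy of CD11c-Cre, a recombinase driven by the promoter of Itgax (CD11c) and so active once cells turn this gene on. Cells were replated on days 4 and 7, and over 90% were CD11c-positive, per the labels. The study asked how control and Arpc4-deficient cells differ as they differentiate. The p-values rest on the spread within all 8 genotype and day groups of the 24 libraries, in which mouse numbers recur from day to day, and not on the 6 day 7 libraries alone.

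Arpc4 is a subunit of the Arp2/3 complex, which nucleates branched actin filaments beneath the plasma membrane and on internal membranes. In GM-CSF cultures of marrow, monocytic precursors give rise to cells with dendritic and macrophage features, which take up and present antigen. Transcription in such cells changes with several programs. One is the ATF4 program, in which a shortage of amino acids or another stress raises translation of the ATF4 protein, which activates genes for amino acid synthesis, import and charging onto tRNA. Another is the interferon response, in which STAT and IRF factors activate antiviral genes.

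The 6 libraries held between 24085929 and 28115517 counts. The 10 most counted genes took 20.9% to 21.3% of counts in WT libraries and 17.2% to 20.2% in KO libraries, with the lowest share in KO67. A principal component analysis of the 6 libraries put 37.8% of the variance on a first axis, where the WT libraries lay at -12.8 or below, KO64 at -2.82, KO68 at 17.1 and KO67 at 44.4. On the second axis, with 22.4% of the variance, KO64 lay at 31.6 and WT63 at 15.5, and the other 4 libraries lay between -22.8 and -2.98. Ddx3y, on the Y chromosome, was at 83.9 CPM (read count scaled by library size) in WT63 and 67.7 CPM in KO64 and at 0 in the others, so each group held 1 library of that kind, and these were the 2 libraries above 0 on the second axis. Itgax itself was at 1089, 1315 and 1068 CPM in WT and at 993, 871 and 952 CPM in KO. The 13 dendritic cell markers summed to 2613 to 3314 CPM in WT and 2965 to 3733 CPM in KO, 10 of them had a log2 fold change above 0 (median 0.42), and 0 were called. Among them Flt3 and Zbtb46, which mark conventional dendritic cells, were near 1 to 5 CPM in all 6 libraries. The summed level of 19 macrophage markers was 33070 to 37530 CPM in WT and 23170 to 32030 CPM in KO. Most of that sum was Gpnmb, and 12 of the 18 tested macrophage markers had a log2 fold change above 0, with 1 called, Fcgr1, which was higher. In bulk RNA, fewer cells of a type and less RNA per cell cannot be told apart.

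Arpc4 RNA, which spans chr6:113378115-113390448 (GRCm38, plus strand), was at 190, 188 and 199 CPM in WT and at 155, 170 and 182 CPM in KO. The groups did not overlap, but the log2 fold change of -0.19 (SE 0.07) did not pass edgeR's quasi-likelihood test, with a Benjamini-Hochberg adjusted p of 0.177. Reads from exons outside the floxed stretch count toward this value, and the labels do not say which exons are floxed, so the level is a weak check of the genotype labels. Arpc4 also overlaps Ttll3 in the annotation. Of the 9 other Arp2/3 subunits tested, 1 was higher in KO and 0 were lower. This was Arpc1b, a haematopoietic isoform of the ARPC1 subunit, at 603, 608 and 602 CPM in WT and 743, 842 and 859 CPM in KO (log2 fold change 0.43, SE 0.09, edgeR adjusted p = 0.016). Its paralog Arpc1a had a log2 fold change of 0.03 and Arpc2 one of -0.02, and neither passed the test. Across the 9 subunits the log2 fold changes ran from -0.86 to 0.43 (median -0.04), with 6 below 0. Of the filament proteins, tropomyosin 4 (Tpm4) was lower in KO (log2 fold change -0.27, edgeR adjusted p = 0.0365), and 0 of 38 regulators of actin nucleation passed. The Arpc1b call was lost without any 1 library other than KO64. That of Tpm4 was lost without any 1 library, on TPM and on the day 7 libraries alone.

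Over all genes, 211 of 14535 tested (1.45%) passed an adjusted p of 0.05, and are referred to as called. Of these, 121 (0.832%) were higher and 90 (0.619%) lower in KO. The median log2 fold change was 0.67 among the higher genes and -0.48 among the lower ones, against -0.01 over all genes tested. At least 2-fold differences were found for 37 of the higher and 19 of the lower genes, while 48 and 56 of them differed by less than 1.5-fold. KO and WT libraries did not overlap for any called gene, as was also the case for 11.9% of all tested genes on the higher side and 14.2% on the lower side. Among the 121 higher genes, KO67 was the highest KO library for 76, KO64 for 32 and KO68 for 13, and among the 90 lower genes KO67 was the lowest for 53. Leaving out KO67 left 11 genes higher and 20 lower, leaving out WT66 left 8 and 16, and leaving out WT65 left 13 and 21. The calls that held whichever single library was left out were 5 higher (Plcb4, Cfp, Lpcat2, Nxpe5, Ifi205) and 15 lower (Asns, Psat1, Ptx3, Ccn3, Trib3, Cldn12, Cyp1b1, Aars, Cars, Nars, Sars, Eprs, Hspa9, Ghitm, Eif2s2), and each other call was lost without at least 1 library. With the mouse number as a replicate block in limma-voom, 73 genes were higher and 72 lower, and 71 and 65 of the original calls were kept. Limma-voom without the block gave 73 and 71. The correlation of same-numbered libraries was estimated at 0.00464, so the fits with and without the block were nearly the same. KO numbers do not follow 1 mouse across days, so the part of recurring mice was not tested. Fitted on the 6 day 7 libraries alone, 172 were higher and 142 lower, but 77 of the 121 and 54 of the 90 original calls were kept.

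**Figure D1:**
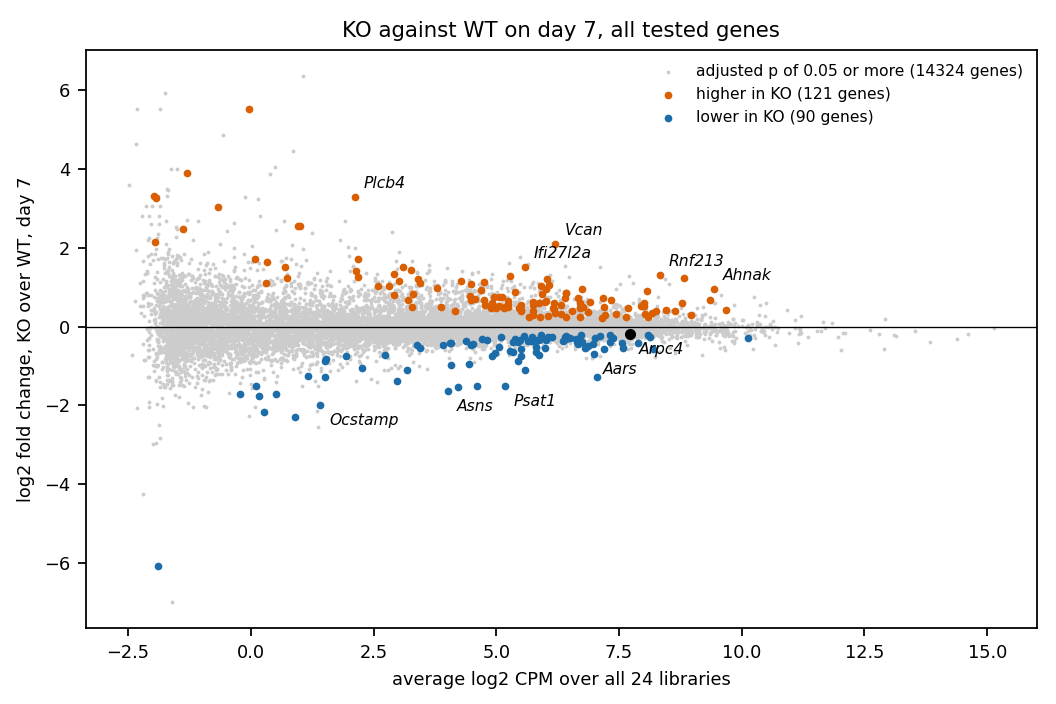
Each point is 1 of the 14535 tested genes, with its average log2 CPM over the 24 libraries on the x axis and its log2 fold change (KO over WT, 3 libraries each) on the y axis. The 121 higher genes (orange) and 90 lower genes (blue) are spread over the range of levels, and Arpc4 (black) lies near 0 at -0.19.

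The 51 gene lists held 30 of the 90 lower genes and 32 of the 121 higher genes. They held 1409 of all 14535 tested genes, so most called genes were in no list. Enzymes that make nonessential amino acids were among the lower genes. Of 26 tested genes of amino acid and one-carbon synthesis, 7 fell and 0 rose, and the list's median log2 fold change was -0.28 (-0.15 among members with a mean count of at least 50). The 7 were Asns, Psat1, Phgdh, Mthfd2, Pck2, Aldh18a1 and Bcat1, and their log2 fold changes lay between -1.77 and -0.76. Without 1 library at a time the count was 3 (without KO67 or WT65), 4 (without KO68), 2 (without WT66) and 5 (without KO64 or WT63).

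Asns, which makes asparagine from aspartate, was at 33.2, 38.9 and 47.4 CPM in WT and at 11.2, 14.5 and 12.7 CPM in KO. Every KO library was thus below every WT library by a wide margin (log2 fold change -1.64, SE 0.16, edgeR adjusted p = 1.06e-05). Psat1, the aminotransferase of serine synthesis, was at 37.8, 44.1 and 53.8 CPM in WT and 15.4, 15.1 and 17.3 CPM in KO (log2 fold change -1.505, SE 0.19, edgeR adjusted p = 0.000236). The KO values lay within a narrow band and the WT values were spread more. Phgdh, which catalyses the first step of the same serine pathway, was at 11.6, 14.8 and 21.1 CPM in WT and at 3.47, 8.02 and 4.93 CPM in KO. Its KO67 value was the closest to WT, and the edgeR adjusted p was 0.043. That call was lost in limma-voom and without any 1 library. Mthfd2, a mitochondrial enzyme of folate metabolism that uses serine-derived carbon, was at 70.9, 84.2 and 95.9 CPM in WT and at 31.8, 45.2 and 40.3 CPM in KO (log2 fold change -1.10, SE 0.20, edgeR adjusted p = 0.0091).

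The third enzyme of serine synthesis, Psph, had a log2 fold change of -0.41 and did not pass. Pycr1, an enzyme of proline synthesis, had one of -1.23 and likewise did not pass, whereas Aldh18a1, which acts upstream of it, was called at -0.76. The Aldh18a1 call was lost in limma-voom, on TPM and without any 1 library. Pck2, the mitochondrial phosphoenolpyruvate carboxykinase, ran between 41.9 and 62.9 CPM in WT and between 23.9 and 28.5 CPM in KO. Bcat1, which starts the breakdown of branched-chain amino acids, was low throughout, at 1.57 to 2.15 CPM in WT and 0.26 to 0.81 CPM in KO.

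Synthetases that charge tRNAs in the cytosol were also among the lower genes. The called ones differed by less than the called synthesis genes did. Of 20 tested cytosolic aminoacyl-tRNA synthetases, 10 fell and 0 rose: Aars, Cars, Yars, Sars, Eprs, Gars, Nars, Tars, Wars and Lars, with log2 fold changes from -0.69 to -0.23. The list's median log2 fold change was -0.29, and 18 of the 20 were below 0. The count was 5 to 9 when 1 library was left out, lowest without WT66. It was 6 without KO67, KO68 or WT65.

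Aars, the alanyl-tRNA synthetase, was at 164, 182 and 196 CPM in WT and at 111, 113 and 112 CPM in KO (log2 fold change -0.69, SE 0.07, edgeR adjusted p = 4.13e-05). Nars, for asparagine, was at 202, 215 and 220 CPM in WT and at 158, 163 and 161 CPM in KO (log2 fold change -0.40, SE 0.05, edgeR adjusted p = 0.000349). In both genes the 3 KO libraries lay within a few CPM of each other. Qars and Farsa, for glutamine and phenylalanine, had log2 fold changes of 0.04 and 0.01. Yars overlaps the more abundant C77080 on the other strand. Of 17 synthetases that serve mitochondria, 0 were called in either direction, with a median of -0.07. Xpot, which exports mature tRNAs from the nucleus and is in no list, was chosen after its values were seen and ran between 107 and 110 CPM in WT and between 83.4 and 92.1 CPM in KO.

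Among 23 regulators of the ATF4 and CHOP program, 2 fell. Atf4 RNA was at 243.7, 276.7 and 298.5 CPM in WT and at 186, 189 and 189 CPM in KO (log2 fold change -0.54, SE 0.10, edgeR adjusted p = 0.00959). Trib3, a pseudokinase induced by ATF4 and CHOP, was at 17.5, 18.2 and 23.8 CPM in WT and at 8.22, 9.82 and 9.43 CPM in KO (log2 fold change -1.11, SE 0.15, edgeR adjusted p = 0.000456). For both genes the KO values lay close together and below all WT values, which were spread more. The Atf4 call was lost without KO67, WT65 or WT66. Ddit3, which encodes CHOP, had a log2 fold change of -0.50 and Chac1 one of -1.25, and neither passed the test.

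Of 23 amino acid transporters, 2 fell. Slc7a1, a carrier of cationic amino acids such as arginine, was at 41.9, 50.2 and 52.0 CPM in WT and at 25.1, 27.7 and 26.4 CPM in KO (log2 fold change -0.86, SE 0.15, edgeR adjusted p = 0.00618). Slc1a5, a carrier of glutamine and other neutral amino acids, had a log2 fold change of -0.37 (edgeR adjusted p = 0.043), and its call was lost in limma-voom and without any 1 library other than WT63. Other stress programs held 0 called genes: 0 of 31 chaperones of the endoplasmic reticulum and XBP1 targets, with a median of -0.02, and 0 of 22 NRF2 antioxidant and metallothionein genes, with a median of -0.11. Over the lists of stress genes as a whole, 21 of 161 tested genes were lower and 0 higher. Of the 21, 8 kept their call without WT66, 11 without KO67 or WT65, 13 without KO68 and 16 without KO64 or WT63.

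**Figure D2:**
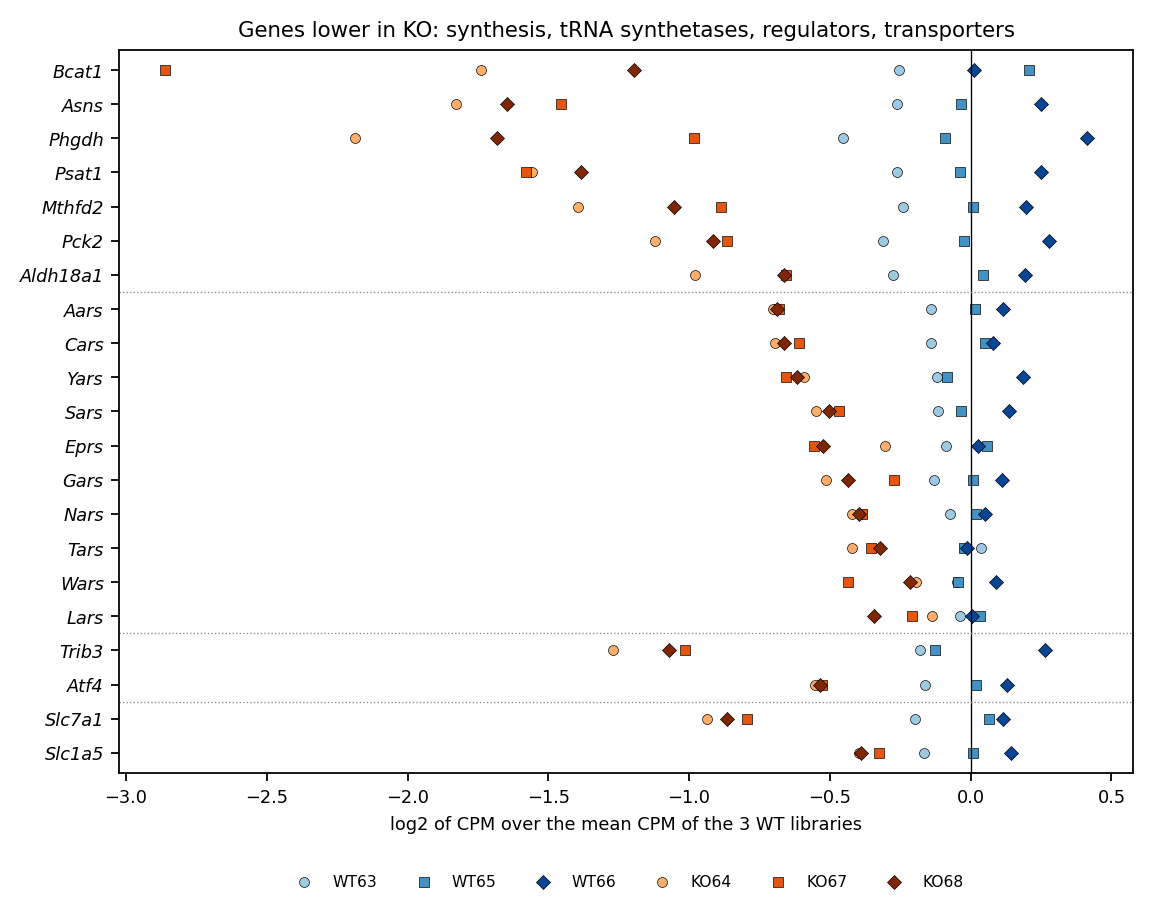
Each point is 1 day 7 library, and the x axis gives the log2 of its CPM over the mean CPM of the 3 WT libraries. The called genes of 4 lists are shown in blocks from top to bottom: synthesis (7), cytosolic tRNA synthetases (10), ATF4 and CHOP regulators (2) and transporters (2). The KO libraries (orange to brown) lie left of the WT libraries (blue) for each gene, and most synthetases sit closer to 0 than the synthesis genes.

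ATF4 and related factors bind composite elements that often include the letters TGATGNAA. That letter string was searched on both strands in the 250 bases before each gene's RefSeq start on GRCm38.p6. These starts can differ from those of GENCODE M21, which gives the gene coordinates elsewhere in the text: the Asns and Aars matches lie inside the GENCODE genes. It was present in 268 of 10521 tested genes with a promoter in the table (2.55%), in 6 of 70 lower genes (8.57%) and in 2 of 92 higher genes (2.17%). The 6 lower genes were Aars, Asns, Gars, Tars, Pck2 and Arl14ep. Among the called synthetases 3 of the 6 with a promoter held it, and among the called synthesis genes 2 of 7. Over the whole lists, 3 of 12 synthetases (25.0%) and 4 of 22 synthesis genes (18.2%) held it. So did 5 of 49 interferon-stimulated genes (10.2%), a list with 0 called lower. The stretches around the match in the 3 synthetases, Asns and Pck2 are shown because these genes fell together. Each is written 5′ to 3′ in the direction of transcription, with the match in capitals. The match lies on the transcribed direction in Asns and on the other strand in Aars, Gars, Tars and Pck2.
Asns: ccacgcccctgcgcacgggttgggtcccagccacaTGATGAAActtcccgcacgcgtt
Aars: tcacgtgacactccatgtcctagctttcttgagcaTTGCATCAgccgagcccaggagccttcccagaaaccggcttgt
Gars: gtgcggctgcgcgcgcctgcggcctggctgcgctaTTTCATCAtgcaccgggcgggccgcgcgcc
Tars: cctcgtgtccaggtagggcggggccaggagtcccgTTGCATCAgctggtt
Pck2: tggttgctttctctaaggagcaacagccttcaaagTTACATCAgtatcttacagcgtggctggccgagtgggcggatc
The stretches are chr6:7693210-7693267 on the minus strand (Asns), chr8:111033695-111033772 on the plus strand (Aars), chr6:55037936-55038000 on the plus strand (Gars), chr15:11399659-11399708 on the minus strand (Tars) and chr14:55540128-55540205 on the plus strand (Pck2). The match begins 23 bases before the RefSeq start in Asns, 112 in Aars, 30 in Gars, 15 in Tars and 103 in Pck2. A match describes these letters and is not evidence of binding.

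Further lower genes had varied roles. Ptx3, a pentraxin that recognises microbes and binds matrix, was at 25.61, 34.97 and 26.61 CPM in WT and at 10.4, 9.86 and 10.3 CPM in KO (log2 fold change -1.51, SE 0.18, edgeR adjusted p = 0.000131). The 3 KO values agreed closely. Ccn3, a secreted matrix-associated protein, was at 7.59, 11.1 and 8.86 CPM in WT and at 3.39, 2.96 and 5.01 CPM in KO (log2 fold change -1.28, SE 0.18, edgeR adjusted p = 0.000896). Cyp1b1, a cytochrome P450 induced through the aryl hydrocarbon receptor, was at 17.1, 20.7 and 22.2 CPM in WT and at 12.7, 8.96 and 8.74 CPM in KO. Cldn12, a claudin, was at 6.30, 8.57 and 7.70 CPM in WT and at 3.35, 3.43 and 4.07 CPM in KO. The 10 stroma and fibroblast markers summed to 43.6, 71.6 and 13.7 CPM in WT and 24.7, 14.9 and 18.6 CPM in KO, so the groups overlapped with WT66 lowest. All 9 tested had a log2 fold change below 0 (median -0.79) and 0 were called. The part of such cells in these lower genes was not tested.

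Ocstamp, needed for fusion of osteoclast precursors, was at 2.89, 5.85 and 6.55 CPM in WT and at 1.32, 0.99 and 1.5 CPM in KO (log2 fold change -2.0, SE 0.50, edgeR adjusted p = 0.049). It was the 1 called gene of 22 in the osteoclast-like fusion list, of which 17 were below 0. The summed level of 13 osteoclast-like markers was 1915 to 2183 CPM in WT and 1387 to 1803 CPM in KO, lowest in KO67. Most of that sum was Atp6v0d2, which was not called. It was at 1330, 1460 and 1279 CPM in WT and at 1127, 853 and 1067 CPM in KO. Acp5, Mmp9 and Itgb3 overlapped between the groups. Calcr, which marks mature osteoclasts, was at 0 throughout. The part of such cells in the Ocstamp difference was not tested. The call was lost in the limma-voom fits with and without the replicate block and without any 1 of the 6 libraries. Bcl2, an inhibitor of apoptosis, was at 30.6, 38.9 and 35.3 CPM in WT and at 25.3, 20.0 and 20.3 CPM in KO (log2 fold change -0.67, SE 0.17, edgeR adjusted p = 0.0465). It was the 1 called gene among 32 of apoptosis and survival, and the call was lost in the limma-voom fits with and without the replicate block and without any 1 library other than KO64. Spred2, an inhibitor of the Ras and ERK pathway, ran between 28.9 and 33.9 CPM in WT and between 18.8 and 25.1 CPM in KO (log2 fold change -0.51, edgeR adjusted p = 0.021). Olr1, a lectin-like receptor for oxidised lipoprotein, ran between 51.9 and 57.9 CPM in WT and between 31.3 and 33.6 CPM in KO (log2 fold change -0.75, edgeR adjusted p = 0.0286). The Olr1 call was lost without any 1 library.

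The naming rule also gave Wnk2, Esyt3 and Maff among the lower genes. Wnk2, a kinase of the WNK family, was at 17.3, 30.5 and 21.2 CPM in WT and at 11.1, 5.57 and 9.73 CPM in KO (log2 fold change -1.39, SE 0.31, edgeR adjusted p = 0.0283). Esyt3, an extended synaptotagmin, which tethers the endoplasmic reticulum to the plasma membrane, had a log2 fold change of -1.29 (edgeR adjusted p = 0.0286). Maff, a small Maf transcription factor, was the 1 called gene of 24 immediate early genes, with a log2 fold change of -0.48 (edgeR adjusted p = 0.0354). The Maff call was lost without any 1 library.

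On the higher side, interferon-stimulated genes were the largest group among the lists, which held 32 of the 121 higher genes. Of 64 tested, 14 rose and 0 fell, 63 had a log2 fold change above 0, and the median was 0.48. The 14 were Ifi205, Ifi27l2a, Oas2, Oas3, Rtp4, Ifit3, Oasl2, Gm4951, Cmpk2, Usp18, Zbp1, Parp14, Oas1a and Dhx58, with log2 fold changes from 0.49 to 2.55. They include the oligoadenylate synthetases, which sense double-stranded RNA, and Usp18, which removes ISG15 from proteins and restrains interferon signalling. The mean log2 CPM of the 64 was 4.41, 4.63 and 4.43 in WT and 4.82 (KO64), 5.36 (KO67) and 5.09 (KO68) in KO.

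KO67 was the highest KO library for 13 of the 14 genes and KO64 the lowest for 13. Leaving out KO67 left 1 called gene and a median of 0.40, and leaving out WT66 also left 1. The count was 2 without WT63, 5 without WT65, 7 without KO68 and 22 without KO64. In limma-voom it was 8, with and without the replicate block, and without the 2 libraries with Ddx3y it was also 8. Members of the Oas, Ifi and Ifit families have close paralogs, between which the counting could have split reads.

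Oas2 was at 13.7, 17.6 and 16.8 CPM in WT and at 29.2, 52.9 and 34.9 CPM in KO (log2 fold change 1.28, SE 0.23, edgeR adjusted p = 0.0091). Usp18 was at 14.3, 18.9 and 14.1 CPM in WT and at 26.4, 31.3 and 29.6 CPM in KO (log2 fold change 0.89, SE 0.17, edgeR adjusted p = 0.0148). Ifi27l2a, a small mitochondrial protein induced by interferon, was at 15.1, 21.4 and 19.5 CPM in WT and at 29.6, 80.5 and 48.9 CPM in KO. Its KO values thus spread far more than those of Usp18. Ifi205, an AIM2-like DNA-binding protein, was at 0.20, 0.23 and 0.09 CPM in WT and at 1.00, 1.07 and 1.03 CPM in KO (log2 fold change 2.55, SE 0.37, edgeR adjusted p = 0.00117). It was low, but it stayed called whichever single library was left out.

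Other genes of the response that were named after their values were seen did not pass. Irf7, which amplifies interferon production, had a log2 fold change of 0.97 (edgeR adjusted p = 0.0651), Ifit1 one of 1.07 (0.0656) and Mx1 one of 0.57 (0.0804). Of 18 GTPases and presentation regulators induced by interferon-gamma, 0 were called, with a median of 0.43, and of 23 genes of MHC class I and peptide loading 0 were called, with a median of 0.15. Zbp1, a sensor of Z-form nucleic acids, and Dhx58, a regulator of RIG-I signalling, were the 2 called genes of 22 in nucleic acid sensing. Both calls were lost in limma-voom with and without the replicate block, on TPM and without any 1 library other than KO64. Outside the list, Rnf213, a giant ubiquitin ligase induced by interferon, was at 140, 181 and 139 CPM in WT and at 384, 428 and 320 CPM in KO (log2 fold change 1.299, SE 0.24, edgeR adjusted p = 0.00959). Ifi213, another AIM2-like gene, was at 1.41, 2.53 and 1.54 CPM in WT and at 4.47, 7.72 and 5.83 CPM in KO (edgeR adjusted p = 0.032). Its call was lost in limma-voom, on TPM, without the 2 libraries with Ddx3y and without any 1 library other than KO64.

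The core of the interferon-stimulated response element, searched as GAAA, any 2 bases and GAAA on both strands in the same windows, was present in 361 of the 10521 tested genes (3.43%). It was present in 7 of 92 higher genes (7.61%) and 1 of 70 lower genes (1.43%). Of the 64 listed interferon-stimulated genes, 49 had a promoter in the table and 21 of these held the letters (42.9%). For the called ones this was 4 of 6. The stretches of these genes are shown because they carry the group's shared letters. For Oas1a and Ifit3, which held more than 1 match, the one farther from the start is marked. It lies on the transcribed direction in Ifi205, Oas1a and Oas3 and on the other strand in Ifit3.
Ifi205: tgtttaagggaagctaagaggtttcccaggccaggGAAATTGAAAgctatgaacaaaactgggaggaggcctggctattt
Oas1a: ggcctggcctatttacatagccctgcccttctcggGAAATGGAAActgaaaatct
Oas3: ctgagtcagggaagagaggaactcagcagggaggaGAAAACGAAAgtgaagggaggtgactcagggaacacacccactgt
Ifit3: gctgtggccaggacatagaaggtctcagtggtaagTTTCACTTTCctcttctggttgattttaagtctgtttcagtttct
The stretches are chr1:174031845-174031924 on the minus strand (Ifi205), chr5:120907526-120907580 on the minus strand (Oas1a), chr5:120777690-120777769 on the minus strand (Oas3) and chr19:34583338-34583417 on the plus strand (Ifit3). The marked match begins 134 bases before the RefSeq start in Ifi205, 20 in Oas1a, 75 in Oas3 and 156 in Ifit3.

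The higher genes also included 2 of the 14 tested monocyte markers, Vcan and Cd300lg. Vcan, a large matrix proteoglycan made by monocytes, was at 9.67, 6.32 and 6.97 CPM in WT and at 14.9, 59.0 and 25.4 CPM in KO (log2 fold change 2.10, SE 0.37, edgeR adjusted p = 0.0091). KO67 alone was far above the others. Cd300lg, a receptor of the CD300 family, was at 0.20, 0.28 and 0.34 CPM in WT and at 0.88, 2.66 and 1.33 CPM in KO (log2 fold change 2.54, SE 0.53, edgeR adjusted p = 0.0213). The same order of KO libraries held. All 14 tested monocyte markers had a log2 fold change above 0, of which Vcan and Cd300lg were called. The 15 markers summed to 4192 to 5041 CPM in WT and 5259 to 5894 CPM in KO, and much of that was Fn1 and Csf1r. KO64 was below every WT library for Ly6c2 (63.1 against 81.2 to 104.7 CPM), Plac8 (18.2 against 22.6 to 33.9 CPM), Ms4a4c and Cx3cr1. For these genes KO67 and KO68 were above every WT library. The Vcan and Cd300lg calls were lost in the limma-voom fits with and without the replicate block, on TPM, and without KO67, WT65 or WT66. That of Cd300lg was also lost without WT63.

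Summed markers of neutrophils and of mast cells, basophils and eosinophils were highest in KO67. The summed level of 19 neutrophil markers was 3484 to 5301 CPM in WT and 4205, 8192 and 5476 CPM in KO64, KO67 and KO68, and 0 of them were called. That of 15 mast cell, basophil and eosinophil markers was 178 to 203 CPM in WT and 182, 473 and 292 CPM in the same KO order, again with 0 called. Of the 19 neutrophil markers, 16 had a log2 fold change above 0. The other neutrophil markers, Mmp8, Ly6g and Retnlg, were below 0, and their KO67 values lay within the WT range. Markers of T and natural killer cells summed to under 5 CPM in each library. The part of these cells in the higher genes was not tested.

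Tlr2, the receptor for bacterial lipoproteins, was at 118, 78.8 and 110 CPM in WT and at 135, 256 and 179 CPM in KO (log2 fold change 0.89, SE 0.17, edgeR adjusted p = 0.0148). It was the 1 called gene of 17 Toll-like receptors. Fcgr1, the high-affinity IgG receptor, was at 83.9, 97.7 and 96.0 CPM in WT and at 121, 128 and 134 CPM in KO (log2 fold change 0.46, SE 0.10, edgeR adjusted p = 0.0204). Of 28 C-type lectins, Clec4a1 and Clec4a3 were higher, with log2 fold changes of 0.77 and 0.49, and Olr1 lower. Marcksl1, which binds actin and rises when dendritic cells mature, was at 48.1, 46.6 and 56.5 CPM in WT and at 70.5, 118 and 86.3 CPM in KO (log2 fold change 0.86, SE 0.20, edgeR adjusted p = 0.0332). The list of 37 maturation genes otherwise held 1 lower gene, Eno2, a glycolytic enzyme, and its median was 0.35. Ccr7, the receptor that guides mature cells to lymph nodes, was at 39.8, 34.6 and 45.7 CPM in WT and at 48.7, 73.2 and 65.9 CPM in KO and was not called. Of 16 genes of MHC class II presentation 0 were called, with a median of 0.37. Notch2, a receptor that guides dendritic cell subsets, was at 208, 194 and 201 CPM in WT and at 296, 297 and 278 CPM in KO (log2 fold change 0.53, SE 0.10, edgeR adjusted p = 0.0156). The Fcgr1, Clec4a3 and Marcksl1 calls were each lost without any 1 library other than KO64. Those of Tlr2 and Notch2 were lost without KO67, WT65 or WT66.

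Among higher genes with an average log2 CPM above 1, the 5 smallest p-values belonged to Plcb4, Cfp, Lpcat2, Nxpe5 and Serpinb10. Plcb4, a phospholipase C that yields inositol trisphosphate, was at 0.96, 0.84 and 0.60 CPM in WT and at 7.82, 8.62 and 7.33 CPM in KO (log2 fold change 3.30, SE 0.23, edgeR adjusted p = 6.38e-08). Cfp, or properdin, which stabilises the alternative complement convertase, was at 342, 314 and 311 CPM in WT and at 510, 512 and 518 CPM in KO (log2 fold change 0.67, SE 0.08, edgeR adjusted p = 0.000209). Lpcat2, which makes platelet-activating factor, ran between 99.9 and 110 CPM in WT and between 134 and 157 CPM in KO (log2 fold change 0.49, edgeR adjusted p = 0.00426). Nxpe5 was at 30.0, 29.2 and 26.5 CPM in WT and at 45.8, 44.8 and 53.2 CPM in KO. Plcb4, Cfp, Lpcat2 and Nxpe5 were the 4 higher genes that stayed called in each of the 18 alternative fits. Serpinb10, a serine protease inhibitor family member that overlaps Serpinb2, was at 2.97, 2.95 and 2.91 CPM in WT and at 5.19, 7.84 and 5.01 CPM in KO (log2 fold change 1.03, SE 0.18, edgeR adjusted p = 0.00698). KO67 was above the other KO libraries, and the call was lost without KO67 or WT66. S100a4, Arhgef37 and Trim30c came from the rule on large changes. S100a4, a calcium-binding protein, had a log2 fold change of 1.45 (edgeR adjusted p = 0.0112), Arhgef37 one of 1.26 (0.0223) and Trim30c one of 1.33 (0.043), and KO67 was the highest library for each. These 3 calls were lost in limma-voom and without KO67, WT65 or WT66. Itpr2, the inositol trisphosphate receptor type 2, rose too (log2 fold change 0.40, edgeR adjusted p = 0.0419), but its call was lost in limma-voom, on TPM, without any 1 library and with the length and GC correction (0.22). Of 37 exchange factors and GTPase-activating proteins, Dock4, Dock5 and Arhgap30 were higher and 0 lower, of which Dock5 was lost in limma-voom.

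**Figure D3:**
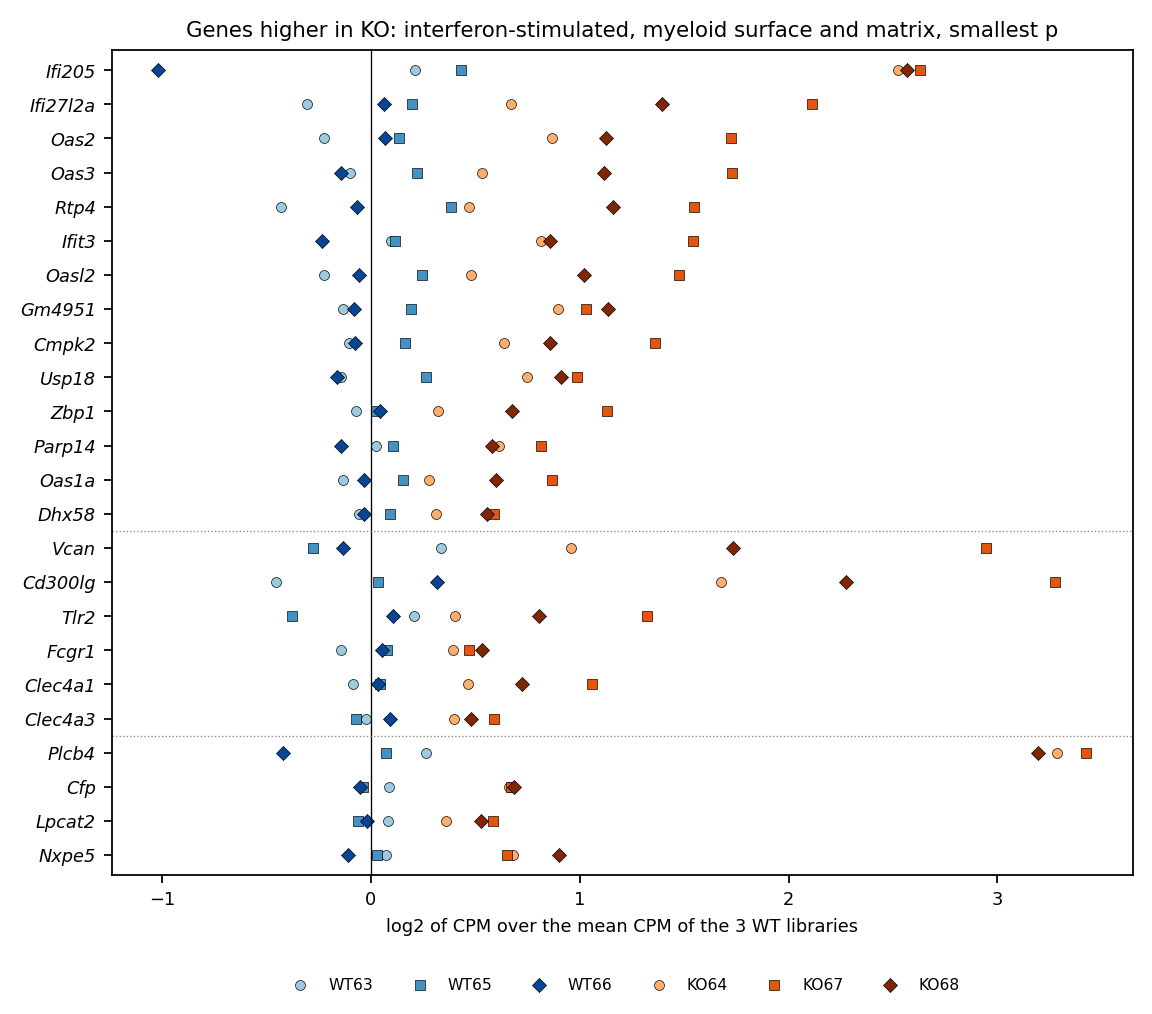
Each point is 1 day 7 library, and the x axis gives the log2 of its CPM over the mean CPM of the 3 WT libraries. The blocks hold the 14 called interferon-stimulated genes, 6 myeloid surface and matrix genes, and the 4 genes called in each of the 18 alternative fits. KO67 (orange squares) lies farthest right for 13 of the 14 interferon-stimulated genes, while the KO libraries lie close together for Cfp.

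Nearly all listed genes of the cell cycle missed the test. Of 71 genes of G2 and mitosis, 70 had a log2 fold change above 0 and the median was 0.88, but 1 was called, Gtse1, which binds microtubules and p53. Gtse1 was at 6.14, 5.52 and 4.58 CPM in WT and at 6.95, 10.9 and 8.10 CPM in KO (log2 fold change 0.67, SE 0.17, edgeR adjusted p = 0.049). It kept its call in 8 of the 18 alternative fits, and lost it without KO67, KO68 or any 1 WT library and in the limma-voom fits with and without the replicate block. The mean log2 CPM of the 71 was 3.10, 2.78 and 2.79 in WT and 3.26 (KO64), 4.17 (KO67) and 3.48 (KO68) in KO, so KO64 was close to WT63 and KO67 far above. Without KO67 the median was 0.56. Of 59 genes of S phase 56 were above 0, with a median of 0.40 and 0 called. Of 42 genes of double-strand break repair and checkpoints 0 were called (median 0.13), and of 31 p53 targets 0 were called (median -0.07).

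Of 19 genes of the nuclear lamina and envelope, 2 were higher. Both encode nesprins, which tie the nucleus to the cytoskeleton. Syne2 was at 3.41, 4.54 and 3.81 CPM in WT and at 9.78, 14.8 and 8.83 CPM in KO (log2 fold change 1.51, SE 0.32, edgeR adjusted p = 0.0246). Syne3 was at 14.1, 13.7 and 13.9 CPM in WT and at 19.04, 27.17 and 19.72 CPM in KO (log2 fold change 0.66, SE 0.15, edgeR adjusted p = 0.0317). Both calls were lost in the limma-voom fits with and without the replicate block, without KO67 or any 1 WT library, on TPM and without the 2 libraries with Ddx3y.

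Syne2 belongs to a set of very long transcripts that were frequent among the higher genes. Of 302 tested genes whose longest annotated transcript is 10 kb or more, 24 were higher (7.95%) and 0 lower. They made up 19.8% of the higher genes against 2.08% of all tested genes. The set includes Ahnak, a giant scaffold protein of the membrane cytoskeleton, at 470, 463 and 421 CPM in WT and at 1030, 851 and 728 CPM in KO (log2 fold change 0.95). It also includes the cytoskeletal linker Dst and the chromatin regulators Kmt2d and Ep400. For 16 of the 24, KO64 was the highest KO library, and for the other 8 it was KO67.

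The length dependence was seen across genes as well. Over 253 genes of 10 kb or more with an average log2 CPM above 1, the median deviation from the WT mean on the log2 scale was 0.31 in KO64, 0.12 in KO67 and 0.10 in KO68, and -0.07 to 0.05 in WT libraries. With a correction for transcript length and GC content, chosen after seeing the data, 13 of the 24 stayed called, among them Ahnak, Dst, Notch2, Rnf213, Syne2 and Vcan, while Dync1h1, Herc2, Itpr2 and Kmt2d did not. Of the 253 genes, 7 were called lower with the correction, against 0 without it. Over all tested genes the correction gave 131 higher and 129 lower. The correction lowered the log2 fold change of Ahnak from 0.95 to 0.61, that of Dst from 0.82 to 0.38 and that of Notch2 from 0.53 to 0.37, and left Vcan at 1.95 against 2.10. The 13 mitochondrially encoded genes, a gauge of RNA composition, were lower in each KO library than in any WT library when averaged: 11 had a log2 fold change below 0, the median log2 fold change was -0.29, 0 were called, and their mean log2 CPM was 6.97 to 7.13 in WT and 6.57 to 6.85 in KO. The part of transcript length was otherwise not tested, nor was that of RNA composition.

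**Figure D4:**
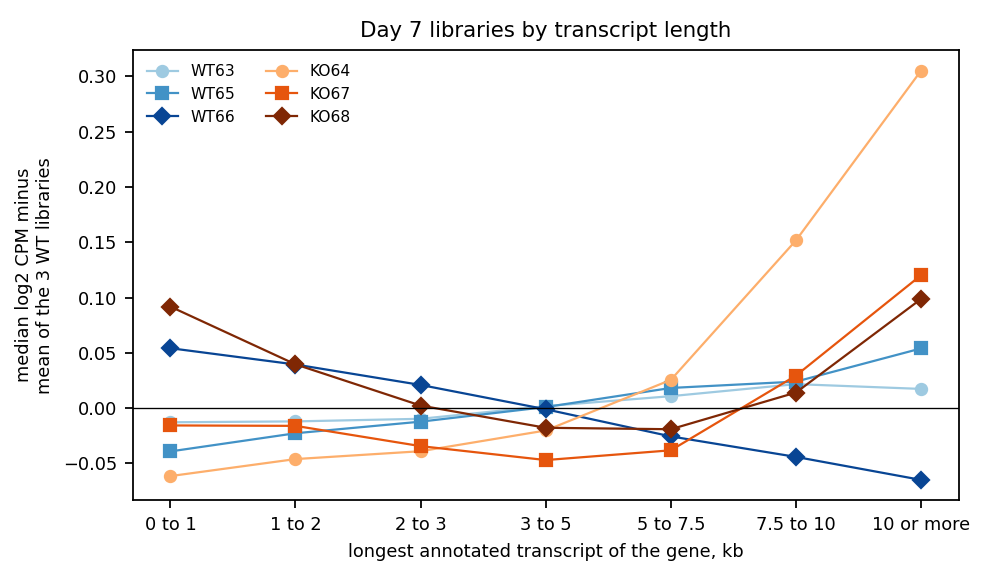
Lines join, for each of the 6 day 7 libraries, the median deviation of genes from the mean of the 3 WT libraries in log2 CPM (y axis) by the length of the longest annotated transcript in kb (x axis). KO64 rises to 0.31 at 10 kb or more, while the WT libraries stay between -0.07 and 0.05.

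Of the higher genes, 12 were not protein-coding by the annotation. Malat1, a long noncoding RNA kept in the nucleus, was at 381, 384 and 324 CPM in WT and at 1231, 668 and 649 CPM in KO (log2 fold change 1.23, edgeR adjusted p = 0.0239). Kcnq1ot1, a nuclear antisense RNA, was at 2.41, 2.62 and 2.44 CPM in WT and at 9.86, 5.14 and 4.72 CPM in KO (log2 fold change 1.40, SE 0.34, edgeR adjusted p = 0.043). KO64 was the highest library for both. With the length and GC correction Kcnq1ot1 was at 0.29 and not called, and it was also lost in limma-voom, on TPM and without any 1 library other than KO68. The Malat1 call was lost without KO64 or any 1 WT library. Rn7sk, a small nuclear RNA that regulates transcription elongation, ran between 0.94 and 2.27 CPM in WT and between 3.73 and 4.79 CPM in KO. A further 7 were provisional transcript models that lie on the same strand within introns of a protein-coding gene, such as Gm37084 in Mapkapk2 and Gm45191 in Prkcb. Whether their reads come from unspliced host RNA was not tested. On the lower side 89 of 90 genes were protein-coding.

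Few of the day 7 differences were called on the following days. On days 8, 9 and 10 the same genotypes gave 1, 1 and 2 called genes of 14535 (0.00688%, 0.00688% and 0.0138%). The test of the day 7 difference against the mean of the 3 later differences called 25 genes (0.172%), 24 of them more negative on day 7 (0.165%) and 1 more positive (0.00688%). Among the 25 were 23 of the 90 genes lower on day 7 and 1 of the 121 higher ones, and the remaining gene was Hmga1, a chromatin protein with a day 7 log2 fold change of -0.26 that was not called there. In limma-voom the count was 16, with and without the replicate block, and without WT66 it was 6, without KO67 or WT65 it was 9 and without KO68 it was 11.

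Asns had log2 fold changes of -0.04, -0.04 and -0.13 on days 8, 9 and 10, against -1.64 on day 7, a difference of -1.57 (SE 0.18, edgeR adjusted p = 0.000421). Psat1 had 0.05, 0.02 and 0.07 on the later days, a difference of -1.55 (SE 0.21, edgeR adjusted p = 0.00158). Ptx3 had -0.25, 0.05 and 0.47, a difference of -1.60 (SE 0.20, edgeR adjusted p = 0.000553). On days 7, 8, 9 and 10, mean Asns was 39.8, 14.3, 13.8 and 10.7 CPM in WT. In KO mean Asns was 12.8, 13.9, 13.45 and 9.73 CPM. Mean Psat1 on these days was 45.2, 32.25, 42.6 and 36.35 CPM in WT and 15.9, 33.3, 43.3 and 38.2 CPM in KO. From the lists of amino acid genes, Mthfd2 and Slc7a1 were also among the 25, and the synthetases were Aars, Cars, Eprs, Nars, Sars and Yars. Of the 14 called interferon-stimulated genes, 0 were among the 25, and for the whole list the median log2 fold change was 0.25, 0.49 and 0.25 on the later days. For the 121 higher genes the medians on days 8, 9 and 10 were 0.28, 0.36 and 0.18, and for the 90 lower genes -0.04, -0.06 and -0.03. Cfp was the exception among the higher genes, with 0.03, 0.18 and 0.26 on the later days and a difference of 0.51 (SE 0.09, edgeR adjusted p = 0.0214). Plcb4 stayed higher, with 3.53, 3.72 and 4.22. The same mouse numbers recur on each day, but the KO library with Ddx3y was number 64 on days 7 and 9, 68 on day 8 and 67 on day 10, so KO numbers do not track 1 mouse across days.

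**Figure D5:**
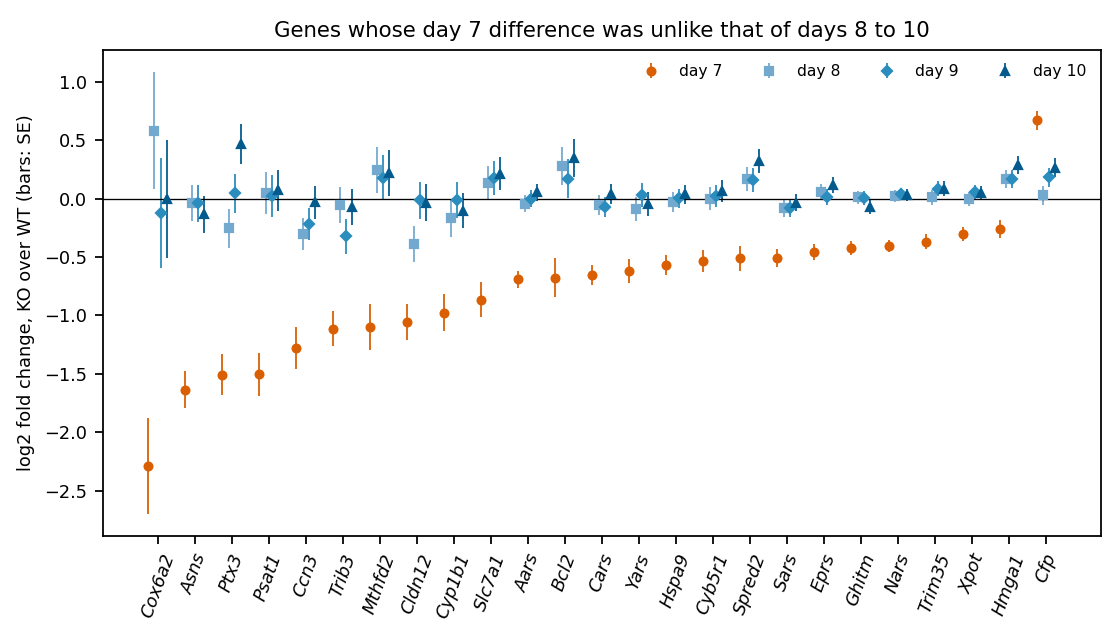
Points give the log2 fold change of KO over WT with its standard error (y axis) on days 7, 8, 9 and 10 for the 25 genes of the test of day 7 against the later days, ordered by the day 7 value. On day 7 (orange) 24 genes lie below 0 and Cfp above, and on the later days (blue) most points lie near 0.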

How the data were processed

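The authors deposited raw counts and TPM per gene for poly(A)-selected mRNA libraries sequenced as read pairs, and the submitters' processing notes name FastQC 0.11.9, STAR 2.6.1, DESeq2 1.22.2 and the build mm10. The deposited counts cover 55487 genes as integers, and 55394 of these identifiers were found in GENCODE M21 (GRCm38). The labels' protocols name 2 stranded library kits without tying either to a library, so kit and group may not be separate. The counter and its strand setting are not given in the sources used here, so opposite-strand overlaps cannot be resolved. The deposited TPM values served 1 alternative, as log2(TPM + 1).

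Counts of all 24 libraries were fitted with edgeR 4.0.16 in R 4.3.3 (TMM factors, filterByExpr over the 8 groups, quasi-likelihood, no covariate, 16 residual degrees of freedom), and p-values were Benjamini-Hochberg adjusted over 14535 genes. CPM values carry the TMM factors. Counts are PCR-amplified reads, and at these totals (24085929 to 28115517 on day 7) the spread between mice exceeds counting error: chi-square per degree of freedom between replicates was 9.85 to 39.5. The fit was tested on simulated data. These were independent draws without recurring mice, an outlying library or a length dependence, so that test does not cover such features.

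Named genes were Arpc4, the 12 largest changes in each direction among called genes with an average log2 CPM above 1, an established symbol and no overlap of the groups, the 5 smallest p-values in each direction, and up to 3 called members of each list. Genes named outside this rule were chosen after their values were seen. The members and the 51 gene lists were chosen with earlier results of these data known. No set test was run.

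Alternatives were DESeq2 size factors, the DESeq2 1.42.0 Wald test, other filters, limma 3.58.1 on TPM, day 7 libraries alone, Xist as a covariate, each library left out, and the mouse number as a replicate block (limma-voom, duplicateCorrelation). The labels give mouse numbers that recur across days and not across genotypes. By Ddx3y the KO numbers did not follow 1 mouse across days, so for KO the block groups numbers and not animals. The consensus correlation of same-numbered libraries was 0.00464. Added after seeing the data were fits without both libraries with Ddx3y, without the 11 genes that were among the 10 most counted on day 7, with a length and GC correction, and with limma-voom without the block, since the block fit also changed the tool. Promoters came from RefSeq (GRCm38.p6).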

Additional observations from a re-analysis of the deposited data

Results flagged for a closer look

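The difference between KO and WT on day 7 differed from the mean of the differences on days 8, 9 and 10 for 25 genes by edgeR's quasi-likelihood test, adjusted over all genes. Each is given here with the day 7 difference minus that mean, on the log2 scale. Among amino acid genes it was -1.57 for Asns, -1.55 for Psat1, -1.31 for Mthfd2 and -1.04 for Slc7a1. It was -0.97 for Trib3, -0.69 for Aars, -0.63 for Cars, -0.59 for Yars, -0.52 for Eprs, -0.44 for Sars, -0.43 for Nars and -0.34 for Xpot. For genes of other roles it was -1.60 for Ptx3, -1.09 for Ccn3, -0.91 for Cldn12, -0.88 for Cyp1b1, -0.94 for Bcl2, -0.73 for Spred2, -0.57 for Hspa9, -0.56 for Cyb5r1, -0.47 for Hmga1, -0.43 for Trim35 and -0.40 for Ghitm. It was 0.51 for Cfp, the only gene of the 25 with a positive difference. It was -2.44 for Cox6a2, a subunit isoform of cytochrome c oxidase that overlaps Itgad on the other strand. Cox6a2 was at 5.18, 6.98 and 14.3 CPM in WT and 1.36, 1.93 and 2.14 CPM in KO on day 7. It was also the 1 called gene among the 5 tested markers of plasmacytoid dendritic cells. The 8 such markers summed to 42.9 to 52.8 CPM in WT and 38.1 to 39.4 CPM in KO, with Cox6a2 itself included. Most of that sum was Tcf4, which overlapped between the groups (log2 fold change -0.05, not called). Tcf4 was at 35.45, 35.72 and 35.43 CPM in WT and at 36.76, 32.36 and 33.6 CPM in KO. The part of such cells in the Cox6a2 difference was not tested.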

How the results depend on the processing

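No called gene changed sign under any alternative. Genes higher and lower in KO numbered 121 and 90. With the replicate block in limma-voom (correlation 0.00464) 73 were higher and 72 lower, and with limma-voom alone 73 and 71. With the DESeq2 Wald test they were 337 and 186, with limma-trend on log2(TPM + 1) 80 and 40, and without both libraries with Ddx3y 66 and 43. With the length and GC correction they were 131 and 129. Without a filter on low counts 241 were higher, with day 7 libraries alone 172 were higher and 142 lower (77 and 54 of the original calls kept), and with a fold minimum of 1 on the log2 scale the counts were 37 and 19. Leaving out each library gave 8 to 192 higher and 16 to 95 lower genes. Calls kept in each of 18 alternative fits numbered 4 higher (Plcb4, Cfp, Lpcat2, Nxpe5) and 14 lower (among them Asns, Psat1, Ptx3, Trib3, Aars, Cars, Sars, Eprs and Nars).

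The 25 genes unlike days 8 to 10 became 16 with the replicate block and 16 with limma-voom alone, 60 with the Wald test, 39 with the length and GC correction, 11 on TPM, 7 at the fold minimum and 6 to 28 with a library left out. Arpc4 (-0.19) stayed past no threshold except with the length and GC correction, at -0.22. The causes of the other changes were not tested. Genes of a few counts, such as Ifi205 in WT, are limited by depth.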

Other observations

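Further called genes, chosen here after their values were seen, had known roles outside the lists described above. Hspa9, the main chaperone of the mitochondrial matrix, was at 329 to 380 CPM in WT and 228 to 246 CPM in KO (log2 fold change -0.57, edgeR adjusted p = 0.00131). Its co-chaperone Dnaja3 had a log2 fold change of -0.31, the matrix protease Lonp1 one of -0.27 and the inner membrane protein Ghitm one of -0.42. Hspa9 and Ghitm stayed called in each of the 18 alternative fits, Lonp1 in 10 and Dnaja3 in 7. Among single genes of translation, with no list behind them, Eif2s2, a subunit of the factor that brings initiator tRNA, had a log2 fold change of -0.45, the poly(A)-binding protein Pabpc1 one of -0.29 and Eif3c one of -0.21. Cfl2 and Dstn, both of which sever and depolymerise actin filaments, had log2 fold changes of -0.43 each. Of the 18 fits, Eif2s2 stayed called in 17, Dstn in 11, Pabpc1 in 10, and Eif3c and Cfl2 in 6.

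On the higher side, Slfn1 and Slfn2, of the Schlafen family, had log2 fold changes of 1.02 and 0.41, and Ms4a4a, Ms4a6b and Ms4a6c, membrane proteins of 1 gene cluster, had 0.94, 1.215 and 0.94. Their paralogs can share reads. They stayed called in 11 (Ms4a6c) to 16 (Ms4a4a) of the 18 fits, Ighg2c in 8 and Il33 in 7. Ighg2c, an immunoglobulin heavy chain constant gene, held 0 to 2 counts in WT libraries and 30 to 48 counts in KO libraries. Il33, a cytokine of the IL-1 family, held 3 to 15 counts in WT libraries and 0 counts in each KO library, and at this depth its absence in KO cannot be told from a low level.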
